A study of Mus musculus with 16 samples.

Results

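The genes described here are the mouse matrix metalloproteases (MMPs), the ADAMTS proteases and the tissue inhibitors of metalloproteases (TIMPs), and their RNA was compared between osteosarcomas labelled KO and osteosarcomas labelled WT for *Arid1a*. Within these families they were taken by name and gene type, as every protein-coding gene whose symbol is Mmp, Adamts or Timp followed by its number. This gave 41 of the 25054 genes in the deposited count table, of which 18 are MMPs, 19 are ADAMTS proteases and 4 are TIMPs. The choice of these families was made with earlier results of these data known.

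MMPs and ADAMTS proteases are zinc-dependent enzymes that cut the proteins of the extracellular matrix. Most MMPs are secreted as inactive precursors and are switched on outside the cell, while the membrane-type MMPs stay anchored at the cell surface. ADAMTS proteases process procollagens, cut proteoglycans such as aggrecan and versican, or act on the microfibrils of the matrix. TIMPs bind the active site of these enzymes and block it. In bone, osteoblasts, osteoclasts and chondrocytes use them to remodel collagen and cartilage.

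All mice carried OsxCreERT2, a Cre recombinase that acts in cells expressing *Osterix* once tamoxifen is given, together with floxed *p53* and floxed *Rb1* (OsxCreERT2+/-;p53fl/fl;Rb1fl/fl), and tamoxifen was given at 400 µg/g body weight at 1 month of age. The 8 KO tumors also carried floxed *Arid1a* (Arid1afl/fl), a subunit gene of a chromatin remodelling complex, and came from 8 mice, which are named Massa, Medusa, Montana, Ohio, Prince, Grilka, Zelda and Oregon. The 8 WT tumors, without the floxed *Arid1a*, came from 4 mice by their animal codes, with 4 tumors from N42 (right pelvis, right femur, left limb, left shoulder), 2 from N43 (spine, pelvis), 1 from N215 (right hind limb) and 1 from N25 that is labelled lung. The body site of the KO tumors is not given in the labels, the animals were over 6 months old and of both sexes, and the sex of each was not used. Whole tumors were sequenced, so that fewer cells of a type and less RNA per cell cannot be told apart.

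The libraries held 1109487 to 15059640 counts on genes in KO and 7806160 to 16962329 in WT. Levels are given as CPM, counts per 1000000 of the library size after TMM scaling, a method that makes libraries of different composition comparable. A count of 3, taken here as the floor of detection for counting error only, was worth 0.146 to 0.340 CPM in WT but 4.03 CPM in Grilka and 6.69 CPM in Massa, which had the smallest libraries. Of the 41 members, 15 were above this floor in Massa, 25 in Grilka, 30 to 37 in the other KO tumors and 34 to 39 in WT. *Arid1a*, counted over the whole gene, was at 107 to 270 CPM in KO and 125 to 236 in WT, so that these counts do not check the KO label. The defining genes of osteoblasts differed widely: the summed level of 10 osteoblast and osteocyte markers was 255 CPM in Prince and 41840 in Grilka, and 1818 in N25 and 54619 in the N42 left shoulder tumor. In Prince the osteoblast genes *Sp7*, *Ibsp* and *Bglap* were at 0.166, 0.166 and 0.415 CPM. Genes of other tissues stood high in single libraries, with summed lung markers of 11351 CPM in Massa and 26604 in N25 and at most 77.5 elsewhere, skeletal muscle markers of 76732 in Montana and 134054 in Oregon, and salivary gland markers of 22427 in Prince. Liver markers summed to 1227 CPM in Zelda and to at most 24.5 elsewhere, and Zelda was kept where Massa, Montana, Prince and Oregon are left out as a group.

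The MMP genes include 6 that lie side by side on the same strand of chromosome 9, from 7272514 to 7581885 of GRCm38 (309372 bp), in the order *Mmp13*, *Mmp12*, *Mmp3*, *Mmp10*, *Mmp8*, *Mmp27*. The other 35 members are spread over the genome, and 17 chromosomes hold at least 1 member. The sequences upstream of the cluster genes are shown because 1 of the neighbours, *Mmp13*, had a higher RNA level than the other 5 in most tumors. Each line gives the 120 bases that end just before a start site annotated by RefSeq on GRCm38.p6, written 5′ to 3′ along the gene. For *Mmp12*, which has more than 1 annotated start, the window with a match is shown. The other *Mmp12* window, which lies further upstream, had no match. Capitals mark TGANTCA, the core motif of AP-1 factors (N is any base), and TGTGGT, the core motif of Runx factors, or its reverse complement ACCACA.

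Mmp13, chr9:7272394-7272513, strand +: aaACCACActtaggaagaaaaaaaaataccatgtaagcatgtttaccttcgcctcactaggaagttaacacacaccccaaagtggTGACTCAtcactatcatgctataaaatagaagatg
Mmp12, chr9:7347254-7347373, strand +: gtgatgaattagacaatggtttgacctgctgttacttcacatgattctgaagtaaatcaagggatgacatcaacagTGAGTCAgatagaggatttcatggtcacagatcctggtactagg
Mmp3, chr9:7445702-7445821, strand +: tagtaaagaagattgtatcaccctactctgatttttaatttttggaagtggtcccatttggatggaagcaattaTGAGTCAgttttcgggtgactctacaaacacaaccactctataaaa
Mmp10, chr9:7502222-7502341, strand +: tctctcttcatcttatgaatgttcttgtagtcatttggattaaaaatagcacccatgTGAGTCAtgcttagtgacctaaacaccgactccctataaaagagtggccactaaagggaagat
Mmp8, chr9:7558309-7558428, strand +: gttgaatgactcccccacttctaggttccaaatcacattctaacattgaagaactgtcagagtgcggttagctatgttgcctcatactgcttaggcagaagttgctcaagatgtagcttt
Mmp27, chr9:7571276-7571395, strand +: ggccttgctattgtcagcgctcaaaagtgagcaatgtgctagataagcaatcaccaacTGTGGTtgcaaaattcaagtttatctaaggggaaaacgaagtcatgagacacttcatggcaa

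TGANTCA was searched on both strands in windows from 250 bases before to 50 bases after each start, and the 2 motifs did not overlap in any window shown. It was found in 4 of the 29 member windows (27 genes had one), or 13.8%, against 7.81% of the 32851 windows of all genes. All 4 of these windows belonged to the chromosome 9 cluster, with the first base of the motif at position −35 from the start in *Mmp13*, −44 in *Mmp12*, −46 in *Mmp3* and −63 in *Mmp10*. TGTGGT was found in 4 of 29 member windows (13.8%), against 16.8% of all windows, at −118 in *Mmp13*, −62 in *Mmp27*, −114 in *Mmp14* and −177 in *Mmp23*. These are matches of letters and not measured binding sites. The motif that *Mmp13* has near its start was thus also present near the starts of *Mmp3* and *Mmp10*. It was present near an annotated start of *Mmp12* but not near the other. RNA of *Mmp3*, *Mmp10* and *Mmp12* was low or at the floor in most tumors.

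Within the cluster, *Mmp13*, a collagenase made by osteoblasts and hypertrophic chondrocytes, ranged from 1.08 to 1998 CPM in KO (median 82.8) and from 21.2 to 1473 CPM in WT (median 406). The other 5 cluster genes never exceeded 19.6 CPM in any tumor. *Mmp12*, the macrophage elastase, reached 19.6 CPM in the N43 spine tumor, 14.4 in N25 and 13.9 in Zelda, and *Mmp3*, a stromelysin, reached 12.1 CPM in the N43 spine tumor and 11.7 in N25. *Mmp10*, the other stromelysin, was at most 2.80 CPM, and *Mmp27* at most 1.97 CPM. *Mmp8*, the collagenase stored in neutrophil granules, was at 8.55 CPM in Zelda and 8.20 in N25 and at 2.36 or less in the other 14 tumors. The 2 tumors with the most *Mmp8* also had the highest summed levels of 10 neutrophil markers, 432 CPM in Zelda and 225 in N25, and whether neutrophil content plays a part was not tested. *Mmp8*, *Mmp10* and *Mmp27* were too low to be tested between the groups, and the genes of this paragraph other than *Mmp13* were singled out after their values were seen.

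**Figure D1:**
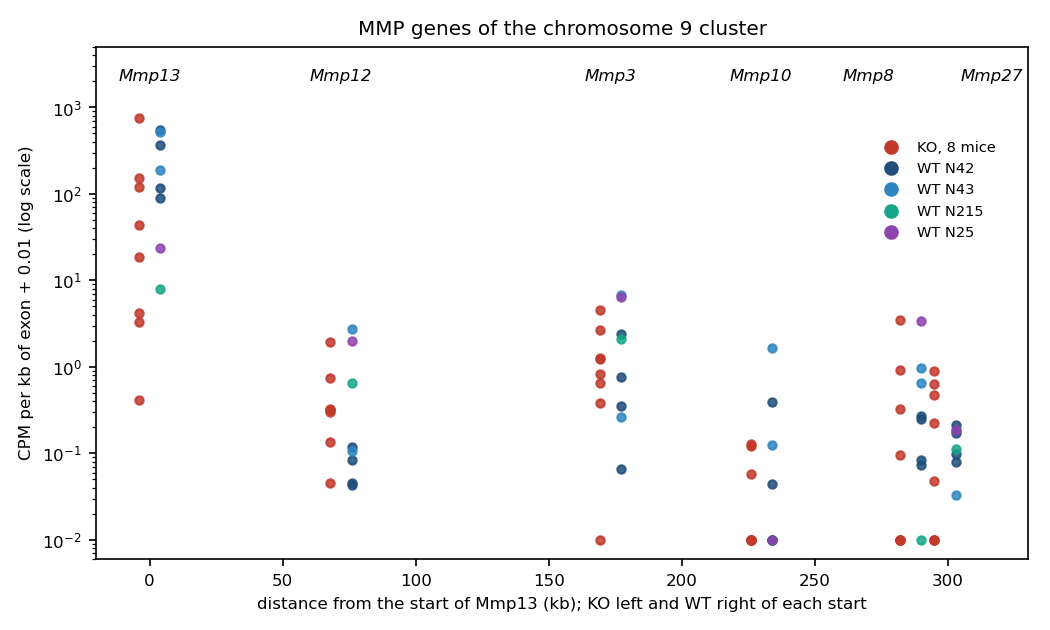
The 6 MMP genes of the chromosome 9 cluster, placed by the distance of their start from the start of *Mmp13* in kb, with each point the level of 1 tumor in CPM per kb of exon plus 0.01 on a log scale, KO to the left and WT to the right of each start, in the colors of the legend. *Mmp13* reaches 1998 CPM in 1 KO tumor, before division by its length, while no other gene of the cluster passes 19.6 CPM.

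Compared per kb of exon, which removes the length of the gene, the members with the highest median level over the 16 tumors were *Mmp13* (104 CPM per kb), *Mmp9* (68.6), *Timp2* (60.9), *Mmp14* (49.7), *Mmp2* (34.8), *Timp3* (34.3), *Timp1* (21.1), *Adamts1* (13.99), *Adamts2* (10.6) and *Adamts10* (8.43). Neighbours in this order overlapped widely between tumors. The MMP that led the MMP total per kb differed from tumor to tumor: it was *Mmp9* in Medusa, Ohio, the N42 right femur tumor and both N43 tumors, *Mmp13* in Grilka, Zelda, N25 and 2 N42 tumors, *Mmp2* in Montana, Oregon and the N42 right pelvis tumor, *Mmp15* in Massa and Prince, and *Mmp14* in N215. In Grilka *Mmp13* alone was 78.2% of that total.

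**Figure D2:**
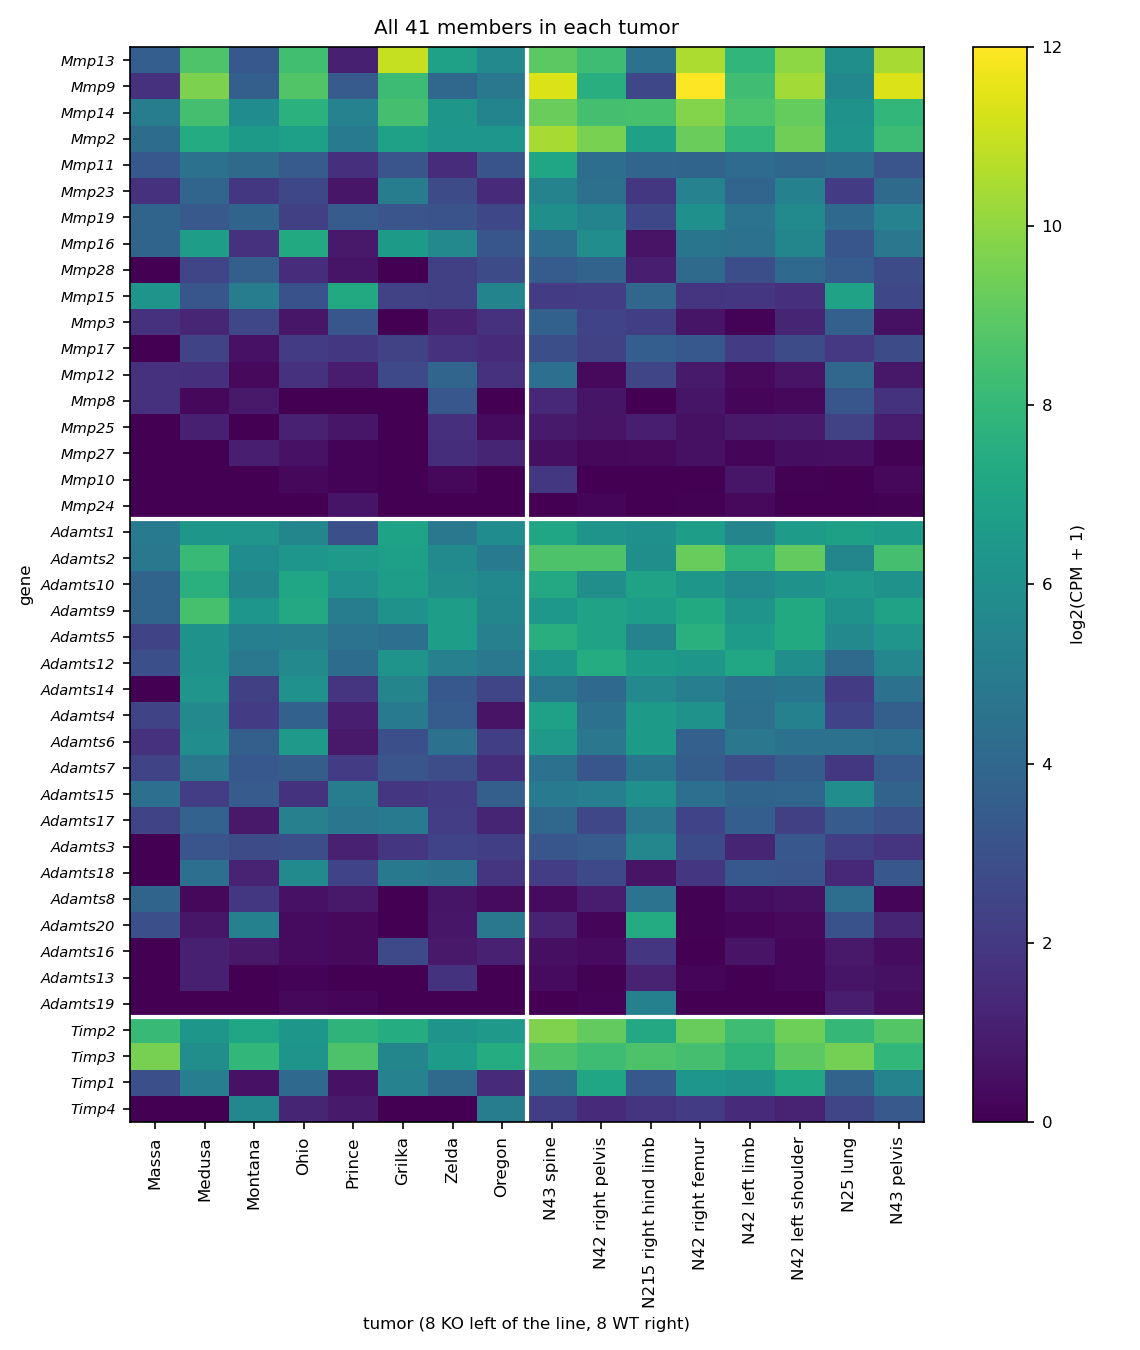
All 41 members (rows, by family and then by level) in the 16 tumors (columns, 8 KO left of the line and 8 WT right), colored by log2(CPM + 1). Few genes are high in every tumor, and single tumors depart from their group, such as N215 with 166 CPM of *Adamts20* and Massa with 741 CPM of *Timp3*.

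The comparison of KO with WT asks whether the set of matrix proteases differs between osteosarcomas that do and do not carry floxed *Arid1a*. edgeR's quasi-likelihood test, two-sided, was fitted over the 15413 genes with enough counts. In this test the p-values were adjusted by Benjamini-Hochberg over all of these genes, and the threshold was 0.05. Of the members, 33 had enough counts (14 MMPs, 15 ADAMTS proteases and 4 TIMPs). The 8 that did not were *Mmp8*, *Mmp10*, *Mmp24*, *Mmp27*, *Adamts8*, *Adamts13*, *Adamts16* and *Adamts19*. The threshold was passed by 3 members, *Mmp2*, *Mmp19* and *Timp2*, and all 3 were lower in KO. That is 9.09% of the 33 tested, against 4.01% of all genes tested in either direction, 2.15% lower in KO and 1.86% higher. At an unadjusted p under 0.05 there were 15 members, 14 of them lower in KO, against 23.0% of all genes in either direction and 9.75% lower. The log2 fold change, KO over WT, was negative for 27 of the 33 and positive for 6, with a median of −1.19, against a median of 0.10 over all genes tested. By family the median was −1.32 for the MMPs (2 of 14 past the threshold), −0.71 for the ADAMTS proteases (0 of 15, with 6 at an unadjusted edgeR p under 0.05 and 2 by DESeq2) and −1.26 for the TIMPs (1 of 4). DESeq2 called 12.5% of all the genes it tested, in either direction. In no member were all KO tumors apart from all WT tumors, as was the case for 0.415% of all genes tested.

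These p-values treat the 8 WT tumors as independent although 4 came from N42, and therefore cover the spread between tumors and not that between mice. No member passed the threshold when the mouse was a random effect in limma-voom (adjusted p of 0.570 for *Mmp2*, 0.528 for *Mmp19* and 0.379 for *Timp2*), when counts were summed per mouse in edgeR, or without the 4 tumors of N42 (7, 6 and 7 members at an unadjusted p under 0.05). With the log2 total count of each library as a covariate in edgeR, none passed either (12 at an unadjusted p under 0.05). In the main fit 23.0% of all genes had such a p. The shares of all genes in these alternative fits are not given here, so no result about the members is read from these counts. By DESeq2, 7 members passed, all of them lower in KO, against 12.5% of all 20078 genes it tested, in either direction. Without Zelda, 4 members passed in edgeR, among them *Mmp2*, *Mmp19* and *Timp2* (adjusted p of 0.0195, 0.0150 and 0.0215). In that fit 1348 genes passed in all, against 618 of all genes in the main fit. The rise was thus not particular to the members.

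**Figure D3:**
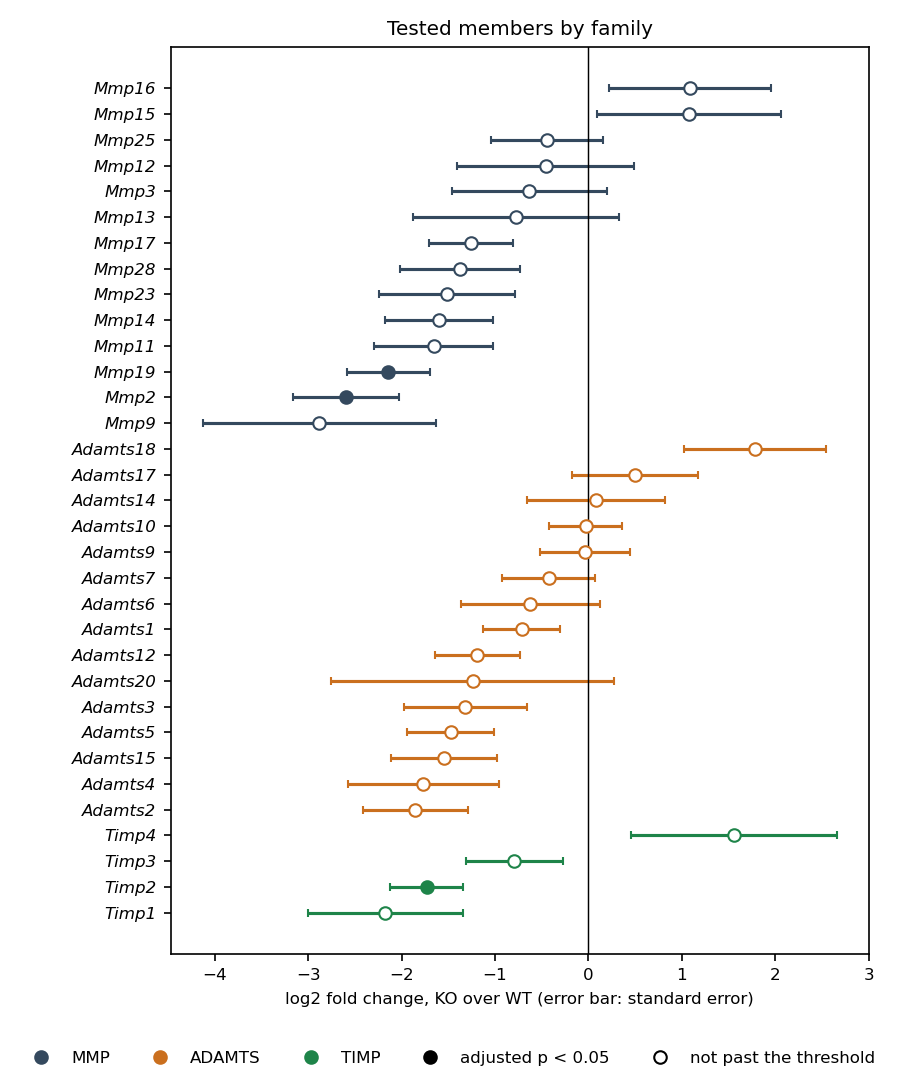
The log2 fold change of KO over WT (points) with its standard error (bars) for the 33 members tested by edgeR, by family, with filled points for an adjusted p under 0.05. Of the 33 points 27 lie left of 0, and the 3 filled ones are *Mmp2*, *Mmp19* and *Timp2*.

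The gelatinases cut denatured collagen and the collagen of basement membranes. *Mmp2*, which stromal cells and osteoblasts make, lies on chromosome 8 from 92827291 to 92853420. It was at 17.8, 84.8 and 163 CPM in KO (lowest, median and highest) and at 73.3, 452 and 1356 CPM in WT. The 6 tumors of N42 and N43 were all above the highest KO tumor, while N215 (118 CPM) and N25 (73.3 CPM) lay inside the KO range. In the log2 fold change, KO over WT, this was −2.60 (SE, the standard error, 0.57, edgeR adjusted p = 0.0181), and exact permutation of the log2 CPM values gave p = 0.00295 over the 16 tumors and p = 0.0687 over the 12 mice. Without Massa, Montana, Prince and Oregon, the 4 KO tumors with most RNA of other tissues, the log2 fold change was −2.16 and the edgeR adjusted p was 0.0809.

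*Mmp9*, the gelatinase that osteoclasts make in bone, was at 2.23, 21.1 and 791 CPM in KO and at 5.10, 800 and 4572 CPM in WT. It split both groups: Medusa, Ohio and Grilka had 297 to 791 CPM and the other 5 KO tumors at most 26.8, and N215 and N25 had 5.10 and 47.3 CPM while the other 6 WT tumors had 188 or more. The log2 fold change of −2.88 had an SE of 1.25 and did not pass the threshold (edgeR adjusted p = 0.179; exact permutation p = 0.0673 over tumors and 0.349 over mice). The summed level of 8 osteoclast markers moved with it in part. It was 388 to 883 CPM in Medusa, Ohio and Grilka, 67.6 to 217 in the other KO tumors, 61.1 in N215 and 2446 to 2457 in the N42 right femur and N43 pelvis tumors. The N43 spine tumor, however, had fewer of these markers than Medusa (551 against 883 CPM) and more *Mmp9* (2614 against 791 CPM). Zelda and the N42 right pelvis tumor had similar markers (217 and 207 CPM) but 15.4 and 188 CPM of *Mmp9*. The part of osteoclast content in *Mmp9* was not tested.

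*Mmp13* did not pass the threshold either, with a log2 fold change of −0.77 (SE 1.10, edgeR adjusted p = 0.722). Exact permutation tests gave p = 0.125 over tumors and 0.481 over mice. The KO tumors Grilka (1998 CPM), Medusa (414) and Ohio (325) were within the range of the 6 tumors of N42 and N43 or above it, whereas Prince (1.08), Montana (8.93) and Massa (11.2) were under every WT tumor. Osteoblast and osteocyte markers summed to 15792 to 41840 CPM in the 3 KO tumors with most *Mmp13* and to 255 to 2161 CPM in the 3 with least, and their part in the result was not tested. Without the 4 KO tumors with most RNA of other tissues the log2 fold change of *Mmp13* turned to 0.18.

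Membrane-type MMPs act at the cell surface, and *Mmp14* (MT1-MMP), a collagenase of this kind, also activates the precursors of MMP2 and MMP13. *Mmp14* was at 33.5, 68.3 and 349.9 CPM in KO and at 70.5, 371 and 870 CPM in WT. Medusa, Grilka (346 CPM) and Ohio (202 CPM) were the highest KO tumors, as for *Mmp9*, and N25 (70.5 CPM) and the N43 pelvis tumor (247 CPM) were the WT tumors below Medusa. KO over WT was −1.60 on the log2 scale (SE 0.58, edgeR adjusted p = 0.112), with an exact permutation p of 0.0104 over tumors and 0.0909 over mice. DESeq2 placed it past the threshold (adjusted p = 0.0470). The window upstream of *Mmp14* is shown with that of *Timp2*, the inhibitor it works with, because the TGTGGT match of *Mmp14* has no counterpart in *Timp2*. The RefSeq start used for *Timp2* differs from the outer end of the gene at 118355740, so its window lies inside the gene's annotated span.

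Mmp14, chr14:54431478-54431597, strand +: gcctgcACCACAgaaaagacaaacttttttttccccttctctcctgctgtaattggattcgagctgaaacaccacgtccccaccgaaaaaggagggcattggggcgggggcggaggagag
Timp2, chr11:118355412-118355531, strand -: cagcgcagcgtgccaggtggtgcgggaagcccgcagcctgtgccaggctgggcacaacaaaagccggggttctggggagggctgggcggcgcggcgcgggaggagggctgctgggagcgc

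The other membrane-type genes differed in direction, and none passed the threshold in edgeR over the 16 tumors. *Mmp15* was at 3.80 to 157 CPM in KO and at 2.07 to 121 CPM in WT, where N25 stood at 121 and the other 7 tumors at 14.4 or less. All 8 KO tumors were above the WT median of 3.40 CPM, but the log2 fold change of 1.08 had an SE of 0.99 (edgeR adjusted p = 0.548). The 3 tumors with most *Mmp15*, which were Prince, N25 and Massa (157, 121 and 73.6 CPM), were those with the most of 8 epithelial markers, at 1481, 719 and 509 CPM, against 28.2 or less in the other 13 tumors, and the part of epithelial cells was not tested. Without the N25 tumor its log2 fold change was 3.09 (SE 0.81, edgeR adjusted p = 0.0370), past the threshold as higher in KO. That fit kept Prince and Massa, the KO tumors with most *Mmp15* and most epithelial markers. With N25 kept and Massa, Montana, Prince and Oregon left out, *Mmp15* did not pass the threshold. *Mmp16* was at 48.6 to 156 CPM in Ohio, Medusa, Grilka and Zelda and at 0.747 to 13.4 CPM in the other 4 KO tumors, against 0.567 to 57.5 CPM in WT, and its log2 fold change of 1.09 did not pass the threshold (edgeR adjusted p = 0.478). *Mmp17* had a log2 fold change of −1.26, which did not pass the threshold in edgeR (adjusted p = 0.108) but did in DESeq2 (adjusted p = 0.0302), *Mmp24* was at most 0.581 CPM, and *Mmp25* was at most 3.94 CPM. *Mmp15*, *Mmp17*, *Mmp24* and *Mmp25* were singled out after their values were seen.

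Among the remaining MMPs, *Mmp19*, a secreted enzyme that cuts basement membrane and other matrix proteins, passed the threshold. It lies on chromosome 10 from 128790910 to 128800824. It was at 3.82, 8.67 and 13.5 CPM in KO and at 4.99, 40.4 and 64.0 CPM in WT. In WT 7 tumors were above every KO tumor, and N215, at 4.99 CPM, was the exception. KO over WT was −2.14 on the log2 scale (SE 0.44, edgeR adjusted p = 0.0146), with an exact permutation p of 0.00357 over tumors and 0.0505 over mice. Of its exon bases 789, or 22.3%, overlap *Tmem198b* on the opposite strand, and since the sources used here do not give the library strand, reads of the 2 genes cannot be told apart there. *Tmem198b* itself was at −0.92 on the log2 scale (edgeR adjusted p = 0.156). *Mmp11* (stromelysin-3) and *Mmp23*, the most abundant of the others, did not pass the threshold, with log2 fold changes of −1.65 and −1.51 and edgeR adjusted p of 0.134 and 0.222. *Mmp11* shares 155 exon bases with *Chchd10* on the opposite strand. *Mmp28*, singled out after its value was seen, had −1.38 (edgeR adjusted p = 0.211), and *Mmp12* and *Mmp3*, at −0.46 and −0.63, had SEs of 0.95 and 0.83. For *Mmp12* the median was nonetheless higher in KO (2.23 CPM, against 0.749 in WT), and 7 KO tumors were above the WT median.

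**Figure D4:**
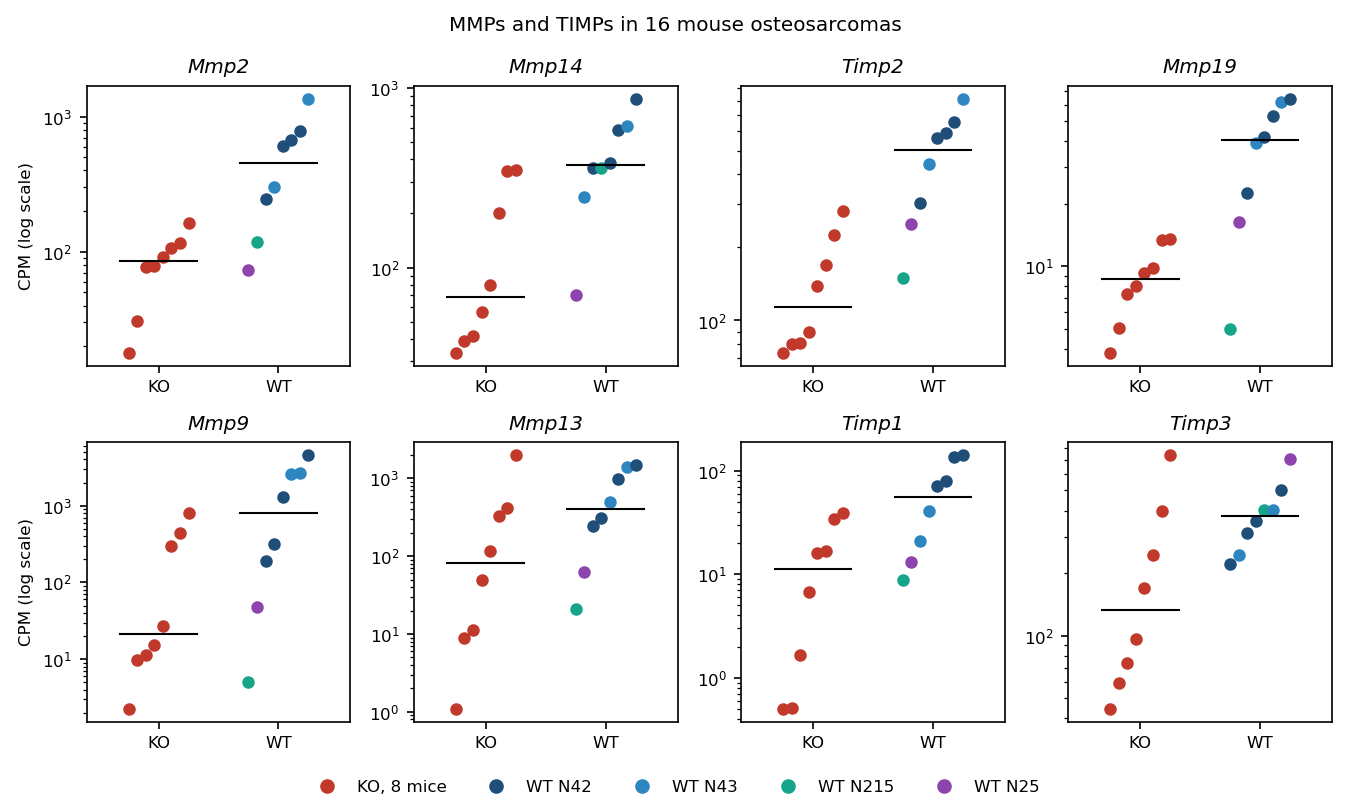
Levels in CPM on log scales of 8 MMPs and TIMPs in the 16 tumors, each point 1 tumor, ordered by level within its group, with KO in red, WT colored by mouse and a line at the group median. For *Mmp2*, *Mmp19*, *Mmp9*, *Mmp13*, *Timp1* and *Timp2* the lowest WT tumors are those of N215 and N25, as in *Mmp2* with 118 and 73.3 CPM.

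The procollagen N-proteinases remove the amino-terminal propeptide of fibrillar collagens. *Adamts2*, the main one of type I collagen, was at 26.8, 67.5 and 283 CPM in KO and at 44.7, 375 and 596 CPM in WT. Medusa, at 283 CPM, was the only KO tumor above the N42 left limb tumor (219 CPM), and N215 (61.4) and N25 (44.7) were under the KO median. Its log2 fold change, −1.85 (SE 0.56, edgeR adjusted p = 0.0678), had an exact permutation p of 0.0177 over tumors and 0.244 over mice. It passed the threshold in DESeq2 (adjusted p = 0.0124) and in edgeR without the N25 tumor (adjusted p = 0.0344). *Adamts14* and *Adamts3*, the other enzymes of this kind, had log2 fold changes of 0.08 (SE 0.74) and −1.32 (SE 0.66), and neither passed the threshold. *Adamts14* was at 42.97 to 75.0 CPM in Medusa, Ohio and Grilka, above all WT tumors but N215 at 48.8, and at 9.02 CPM or less in the other KO tumors.

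None of the members that cut proteoglycans passed the threshold in edgeR over the 16 tumors, and 1 of them, *Adamts5*, passed it in DESeq2. *Adamts1*, which cuts versican and aggrecan, was at 6.56, 51.0 and 122 CPM in KO and at 42.9, 97.4 and 136 CPM in WT (log2 fold change −0.71, SE 0.42, edgeR adjusted p = 0.313, exact permutation p = 0.0432 over tumors and 0.160 over mice). *Adamts5*, the main aggrecanase of mouse cartilage and a neighbour of *Adamts1* on chromosome 16, was at 4.46 to 101 CPM in KO and at 40.7 to 193 CPM in WT, and 6 KO tumors were under the lowest WT tumor. Its log2 fold change was −1.47 (SE 0.47, edgeR adjusted p = 0.0759, DESeq2 adjusted p = 0.0256). *Adamts9*, the most abundant ADAMTS gene after those described in full, showed a log2 fold change of −0.04 (SE 0.48). *Adamts4* was at −1.77 (edgeR adjusted p = 0.201) and *Adamts15* at −1.54 (edgeR adjusted p = 0.118), and for *Adamts15* the exact permutation test over mice gave p = 0.0182. Without the 4 KO tumors with most RNA of other tissues *Adamts15* was at −3.35 (edgeR adjusted p = 0.0144), past the threshold. *Adamts20* reached 166 CPM in N215, 37.2 in Montana and 27.4 in Oregon and was at 7.10 or less elsewhere.

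*Adamts10*, which acts on fibrillin microfibrils, was at 13.4, 63.7 and 194 CPM in KO and at 52.5, 75.5 and 148 CPM in WT. Its log2 fold change was −0.03 (SE 0.39, edgeR adjusted p = 0.976, exact permutation p = 0.532 over tumors and 0.517 over mice), and this error leaves room for a change in either direction. *Adamts6* and *Adamts17*, related to it, had −0.62 and 0.50 (SEs 0.75 and 0.67). Of the enzymes that cut cartilage oligomeric matrix protein, *Adamts12* was lower at an unadjusted p only (log2 fold change −1.19, edgeR adjusted p = 0.131), and *Adamts7* had −0.43 (SE 0.50). *Adamts18* was the only member higher in KO at an unadjusted p under 0.05, with a log2 fold change of 1.78 (SE 0.76, edgeR adjusted p = 0.170). It was at 19.9 to 53.2 CPM in Medusa, Zelda, Grilka and Ohio, above every WT tumor, and at 4.40 CPM or less in the other 4 KO tumors, against 0.567 to 9.04 CPM in WT. Without Massa, Montana, Prince and Oregon it passed the threshold (log2 fold change 2.65, edgeR adjusted p = 0.0239).

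The ADAMTS genes that were too low to be tested were high in single tumors. *Adamts8* was at 23.0 CPM in N215, 19.5 in N25 and 13.4 in Massa and at 2.81 or less in the other 13 tumors. N25 and Massa were the tumors with lung markers of 26604 and 11351 CPM, while N215 had 77.5, and the part of lung tissue was not tested. *Adamts19* was at 37.3 CPM in N215 and at most 0.904 elsewhere. *Adamts16* reached 5.37 CPM in Grilka, which is 4 counts and near the floor there, and *Adamts13*, which cuts von Willebrand factor, reached 2.37 CPM in Zelda. Apart from *Adamts1*, *Adamts2*, *Adamts10*, *Adamts9*, *Adamts5* and *Adamts12*, the ADAMTS genes named were singled out after their values were seen.

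Of the inhibitors, *Timp2* passed the threshold. It lies on chromosome 11 from 118301069 to 118355740 on the minus strand, and its protein takes part with MT1-MMP in the activation of MMP2 besides blocking MMPs. It was at 73.5, 114 and 283 CPM in KO and at 149, 500 and 817 CPM in WT. Of the WT tumors 6 were above every KO tumor, 5 KO tumors were under every WT tumor, and N215 (149 CPM) and N25 (249.9 CPM) were the WT tumors in between. KO tumors differed from WT by −1.73 on the log2 scale (SE 0.39, edgeR adjusted p = 0.0218), and the exact permutation test gave p = 0.00171 over tumors and 0.0222 over mice. Without the N42 left shoulder tumor the edgeR adjusted p was 0.0504.

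*Timp1* was at 0.498, 11.3 and 38.9 CPM in KO and at 8.85, 55.5 and 141 CPM in WT. All 8 KO tumors were under the WT median, but N215 (8.85), N25 (12.97) and the N43 spine tumor (20.8) were inside the KO range. Its log2 fold change of −2.17 had an SE of 0.83 and did not pass the threshold (edgeR adjusted p = 0.130, exact permutation p = 0.0152 over tumors and 0.178 over mice). *Timp3*, which is bound to the matrix and also inhibits ADAMTS proteases, was at 44.3, 133 and 741 CPM in KO and at 221, 378 and 709 CPM in WT. Massa (741) and Prince (399) were the highest KO tumors, and N25 (709) the highest WT tumor. Its log2 fold change was −0.79 (SE 0.52, edgeR adjusted p = 0.373, exact permutation p = 0.0311 over tumors and 0.0808 over mice), and it moved to −2.51 (edgeR adjusted p = 0.00827) without the 4 KO tumors with most RNA of other tissues. *Timp3* shares 1733 exon bases (21.3%) with *Syn3* on the opposite strand, and *Syn3* was at most 6.72 CPM.

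*Timp4* was at 46.9 CPM in Montana and 31.9 in Oregon, at 1.34 or less in the other 6 KO tumors and at 1.30, 2.87 and 9.33 CPM in WT. Its fitted log2 fold change was 1.56 (SE 1.10, edgeR adjusted p = 0.415), although 6 of the 8 KO tumors were under the WT median, and the exact permutation p of log2 CPM was 0.239 over tumors and 0.337 over mice. Montana and Oregon were the tumors with skeletal muscle markers of 76732 and 134054 CPM, against at most 7070 in the other 14. Without Massa, Montana, Prince and Oregon the log2 fold change of *Timp4* was −3.004 (edgeR adjusted p = 0.0983), and the part of muscle tissue was not tested beyond this.

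Summed per kb of exon, the MMPs were at 41.3, 89.1 and 956 CPM per kb in KO and at 120, 791 and 2218 in WT. The TIMPs were at 47.9, 70.2 and 171 in KO and at 97.9, 237 and 389 in WT, and the ADAMTS proteases at 20.4, 48.8 and 148 in KO and at 64.9, 128 and 168 in WT. The ratio of the MMP sum to the TIMP sum ranged from 0.241 in Massa to 10.3 in Grilka in KO (median 1.78) and from 0.733 in N25 to 7.77 in the N42 right femur tumor in WT (median 2.32). The ranges of the ratio in the 2 groups thus overlapped over nearly their whole width, while the KO medians of all 3 sums were below those of WT. These sums were not tested.

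The WT mice differed among themselves for several members. *Mmp9* was at 188 to 4572 CPM in the 4 tumors of N42 and at 2614 and 2670 CPM in those of N43 but at 5.10 in N215 and 47.3 in N25. *Mmp2* was at 247 to 779 CPM in N42, at 300.0 and 1356 in N43, at 118 in N215 and at 73.3 in N25. N215, by contrast, held the highest level of all 16 tumors for *Adamts3* (45.8 CPM), *Adamts8*, *Adamts19* and *Adamts20*. With 1 tumor each from N215 and N25, mouse and body site cannot be told apart.

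Markers of several cell types were mostly lower in KO along with these results, and those of others went both ways. The 10 macrophage markers summed to 147 to 588 CPM in KO and to 349 to 1867 CPM in WT, and all 10 had a lower median in KO. Summed fibroblast markers were at 471 to 3922 CPM in KO and at 1668 to 26133 CPM in WT, with lower KO medians for 9 of 10. Osteoclast markers summed to 67.6 to 883 CPM in KO and to 61.1 to 2457 CPM in WT, with lower KO medians for 8 of 8. Osteoblast and osteocyte markers summed to a median of 4587 CPM in KO and 37214 CPM in WT, with lower KO medians for 9 of 10. Endothelial markers, by contrast, summed to medians of 371 CPM in KO and 365 in WT, with lower KO medians for 3 of 8. For pericyte and smooth muscle markers the medians were 1009 CPM in KO and 855 in WT (5 of 8 lower). They were 257 and 282 CPM for chondrocyte markers (4 of 9 lower) and 13.1 and 6.24 CPM for neutrophil markers (5 of 10 lower). The N43 spine tumor had both the most fibroblast markers (26133 CPM) and the most *Mmp2* and *Timp2*, at 1356 and 817 CPM. How far the levels of *Mmp2*, *Mmp19* and *Timp2* follow from these cells was not tested.

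**Figure D5:**
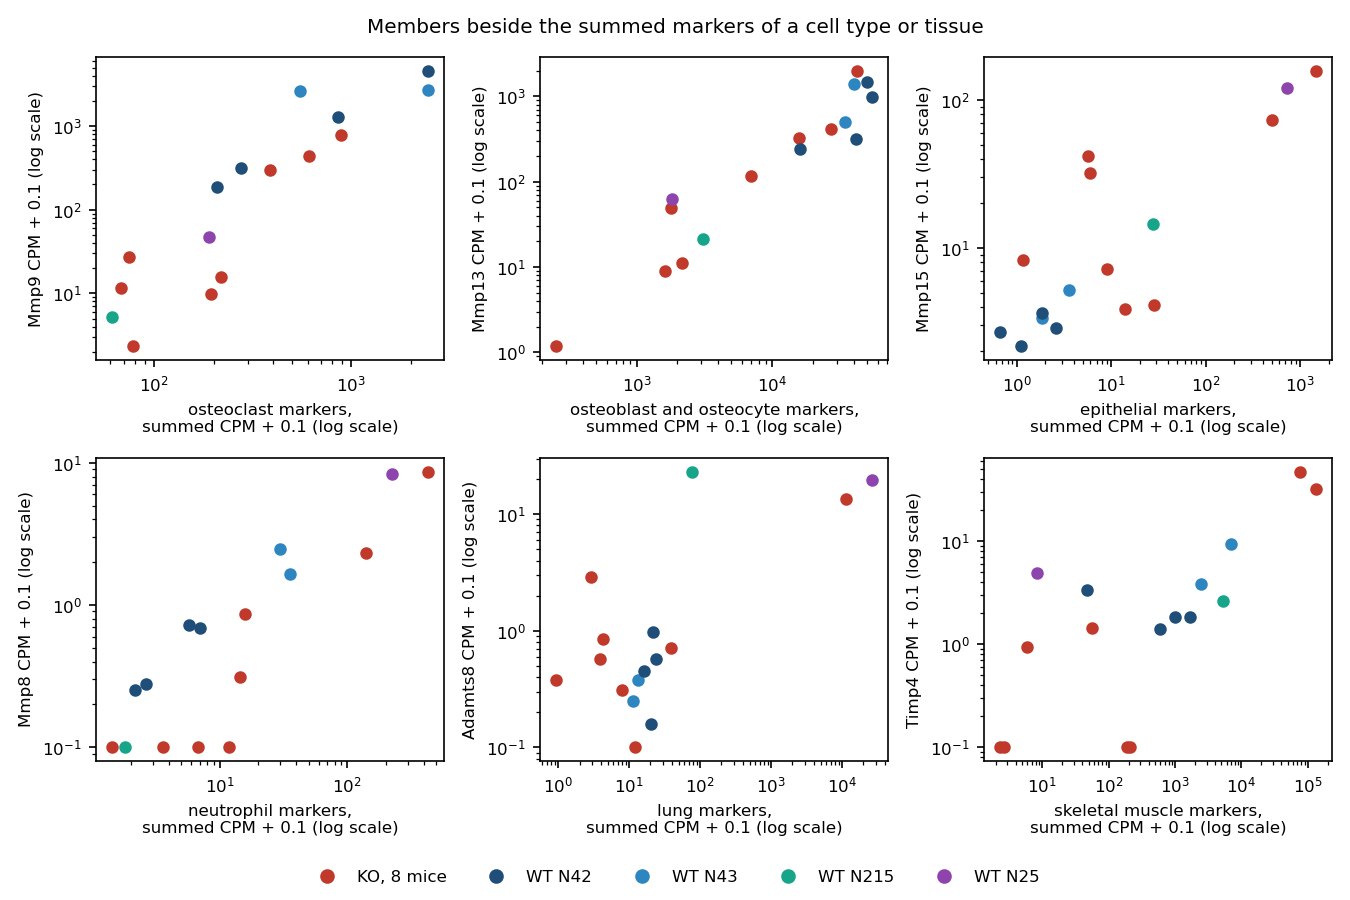
Levels of 6 members (vertical axes, CPM + 0.1) against the summed level of markers of a cell type or tissue in the same tumor (horizontal axes, CPM + 0.1), all on log scales, with 1 point for each of the 16 tumors in the colors of the legend. *Mmp15* is highest in the 3 tumors with epithelial markers of 509 to 1481 CPM, and *Timp4* in the 2 tumors with skeletal muscle markers of 76732 and 134054 CPM.

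Genes that activate, inhibit, clear or resemble these proteases, and some of their substrates, were examined as 8 lists of 79 genes, of which 77 were in the table and 66 were tested. Of these, 11 passed the threshold, all of them lower in KO. That is 16.7%, against 4.01% of all genes tested in either direction and 2.15% lower in KO. The median log2 fold change of the 66 was −0.80, against 0.10 over all genes tested. The lists were chosen with earlier results of these data known, so these shares are not independent support. None of the lists' genes passed when counts were summed per mouse in edgeR, where 15 had an unadjusted p under 0.05. The share of all genes with such a p in that fit is not given here. Of the plasminogen system, whose product plasmin activates MMP precursors, 2 of 5 tested genes passed the threshold as lower in KO. All 5 had a negative log2 fold change. *Plat*, tissue plasminogen activator, was at 1.34, 6.88 and 13.7 CPM in KO and at 13.3, 61.7 and 122 CPM in WT (log2 fold change −3.13, SE 0.48, edgeR adjusted p = 0.00366), and an exact permutation over mice gave p = 0.00202, the smallest it can give. *Plaur*, the urokinase receptor, had −2.46 (edgeR adjusted p = 0.0243).

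Of the 8 tested genes that inhibit or clear metalloproteases or help them, 3 passed the threshold as lower in KO. All 8 had a negative log2 fold change. *Lrp1*, an endocytic receptor that takes up MMPs and TIMPs, was at 221, 413 and 713 CPM in KO and at 671, 1788 and 3095 CPM in WT (log2 fold change −2.01, SE 0.37, edgeR adjusted p = 0.00945, exact permutation p over mice = 0.00606). *Tfpi2*, a protease inhibitor, had −2.62 (edgeR adjusted p = 0.0404), and *Pcolce*, an enhancer of procollagen C-proteinase, had −1.83 (edgeR adjusted p = 0.0313). *Reck*, a membrane-anchored MMP inhibitor, had −1.32 and did not pass the threshold (edgeR adjusted p = 0.0919). Among 11 ADAM proteases, *Adam8* (log2 fold change −3.11, edgeR adjusted p = 0.00251), *Adam22* (−2.88, 0.0422) and *Adam23* (−2.88, 0.0408) passed the threshold as lower in KO. The log2 fold change was negative for 8 of the 11 and positive for 3. *Adam22* and *Adam23* encode proteins without protease activity.

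Among 6 cysteine cathepsins, lysosomal proteases that also digest matrix, *Ctsb* (log2 fold change −1.89, edgeR adjusted p = 0.0126), *Ctss* (−2.12, 0.0322) and *Ctsz* (−1.49, 0.0264) passed the threshold as lower in KO. All 6 had a negative log2 fold change. *Ctsk*, the collagen-digesting cathepsin of osteoclasts, had −2.46 with an SE of 1.03 and did not pass the threshold (edgeR adjusted p = 0.167). None of the 11 tested substrates passed the threshold in edgeR. *Fn1* (fibronectin) had −2.55, *Sparc* −2.13 and *Lox* −2.31, with edgeR adjusted p of 0.0558, 0.0881 and 0.0881. None of the 4 proprotein convertases, the 7 ADAMTS-like genes and the 14 AP-1, ETS and Runx factors passed, and among the factors *Jund*, an AP-1 subunit, had 1.47 (edgeR adjusted p = 0.0663) and *Runx2*, the osteoblast Runx factor, 0.31 (SE 0.68). At an unadjusted edgeR p under 0.05 there were 4 of the 11 substrates, 1 of the 4 convertases, 0 ADAMTS-like genes and 3 of the 14 factors. Of all genes tested, 23.0% had such a p in either direction.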

How the data were processed

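RNA of 16 tumors was analyzed, from 8 KO and 4 WT mice. Per the labels and the paper's methods, the authors removed ribosomal RNA, aligned the reads with Novoalign 2.08.01 and counted them per gene. The table deposited by the authors holds raw counts without normalization, on which they ran DESeq2 1.26.0. The library strand was not given in the sources used here, and 11 members share exon bases with a gene on the opposite strand, where reads cannot be assigned to 1 gene.

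Counts were tested with edgeR 4.0.16 in R 4.3.3 (TMM, filterByExpr with a minimum count of 10, glmQLFit, glmQLFTest). Log2 CPM with a prior count of 2 was compared by exact permutation, over 12870 splits of the tumors (smallest possible p 0.000155) and 495 splits of the mice (smallest 0.00202). All tests were two-sided. DESeq2 1.42.0, limma 3.58.1, counts summed per mouse, other scalings, no filter and left-out libraries were alternatives. On simulated data with 24901 genes, edgeR found 150 of 199 changed genes it tested with 4 false calls. The simulated tumors were independent and the changes large, whereas WT tumors shared mice. The simulation therefore does not measure false calls that come from shared mice.

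Members and lists were chosen with earlier results of these data known. Genes were described in full when past the threshold, among the 10 highest per length, or TIMPs (12 genes), and otherwise up to 3 of the most abundant per family. Of the regulator lists, genes past the threshold or up to 3 of the most abundant were to be named, and *Reck* was named after its value was seen.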

Additional observations from a re-analysis of the deposited data

Results flagged for a closer look

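A group's highest or lowest tumor was looked at more closely when its gap to the next tumor took more of the group's range on the log2 CPM scale than Dixon's 95% limit for 8 tumors allows (0.526). Of 77 such group tests over the members, 8 were past it, and chance alone passes about 1 in 20. In WT, *Mmp11* was at 136 CPM in the N43 spine tumor against 7.97 to 19.1 in the other WT tumors. From N25, the tumor labelled lung, came 3: *Mmp15* at 121 CPM against 2.07 to 14.4, *Mmp25* at 3.94 CPM against 0.454 to 1.02, and *Adamts14* at 3.42 CPM against 16.1 to 48.8. From N215 came 3: *Mmp16* at 0.567 CPM against 8.39 to 57.5, *Mmp28* at 1.02 CPM against 5.97 to 16.6, and *Adamts19* at 37.3 CPM against 0 to 0.904. In KO, *Adamts3* was at 0 CPM in Massa against 1.16 to 8.03 in the other KO tumors, where the floor of 3 counts in Massa is 6.69 CPM. Such a value was not distinguishable at this depth from all but the highest of the others.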

How the results depend on the processing

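No paired analysis was possible because KO and WT share no mice, and replicate numbers do not pair tumors. The counts past the threshold (3 members, of them 2 MMPs, 0 ADAMTS proteases and 1 TIMP, 11 regulators and substrates, and 618 of all genes) differed by at most 1.5 times under RLE or upper-quartile scaling, without the filter and without the shallow Massa and Grilka (all genes up to 890). DESeq2 gave 7 members, 4 MMPs, 2 ADAMTS proteases, 17 regulators and 2517 genes (12.5% of the 20078 it tested). With the mouse as a random effect, with counts summed per mouse and without the N42 tumors, every member and regulator count was 0 (7, 6 and 7 members and 16, 15 and 15 regulators at an unadjusted p under 0.05), with 17, 10 and 8 genes in all. Without the lung-labelled tumor there were 5 members and 1 ADAMTS protease. For the 2 alternatives chosen after seeing the data, removing Massa, Montana, Prince and Oregon gave 5 members, 1 MMP, 2 ADAMTS proteases, 2 TIMPs, 6 regulators and 976 genes, and the log2 total count as a covariate gave 0 members and regulators (12 members at an unadjusted p) and 99 genes. The shares of all genes at an unadjusted p in these alternative fits are not given here. Leaving out 1 tumor gave 2 to 5 members, 2 to 3 MMPs, 0 to 1 ADAMTS proteases, 0 to 1 TIMPs, 4 to 13 regulators and 252 to 1348 genes, the lowest member and gene counts being without the N42 left shoulder tumor.

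Over the 27 alternatives the adjusted p was 0.000165 to 0.570 for *Mmp2* (past the threshold in 22), 0.000179 to 0.528 for *Mmp19* (23) and 0.000820 to 0.445 for *Timp2* (22), always lower in KO. Of the 27, 16 each left out 1 tumor and otherwise matched the main fit, so this tally does not measure the spread between mice. None of these 3 genes passed with the mouse as a random effect, with counts summed per mouse or without the N42 tumors. *Mmp13* turned to 0.18 and *Timp4* to −3.004 without the 4 KO tumors with RNA of other tissues, and *Timp4* to −1.74 with the mouse as a random effect. *Adamts10* turned to 0.061 without the shallow tumors, 0.53 without the 4 tumors, 0.11 with the covariate and −0.34 to 0.13 when single tumors were left out. The cause was not tested. Low members were less often above the floor in the shallower KO libraries (15 in Massa, 34 to 39 in WT).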
